A study of Mus musculus with 2 samples.

Results

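The fatty acid uptake and binding genes described here are 9 named genes (Lpl, Gpihbp1, Cd36, Fabp4, Fabp5, Slc27a1, Slc27a4, Acsl1 and Acsl4) of the 31053 genes in the count matrices. They were listed by name, and each of the 9 was found in both matrices. Together they cover the route of a fatty acid into a cell, from its release at the capillary wall to its activation in the cytoplasm.

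The data are single-nucleus RNA-Seq (snRNA-Seq) of iWAT, the inguinal white adipose tissue that lies under the skin, from male C57BL/6 mice on a Western diet. By the paper's account the tissue was taken without the lymph node. There was 1 library with the genotype label Lexis WT and 1 with the label Lexis KO, each from the pooled tissue of 3 mice, with no replicate of either. The study asked how the cell populations of this depot change when fat cells lose Lexis, a long noncoding RNA. The groups carry floxed Lexis alleles, without Cre in the controls (Lexis-AdWT) and with Adipoq-cre in the knockouts (Lexis-AdKO). The Adipoq promoter drives Cre in adipocytes, so the other cell types of the depot are not its target. The paper gives a general age range for most of its experiments, but no age for these animals in particular. File names and labels give opposite genotypes and no value of Lexis was analysed here, so the libraries are called WT-labelled and KO-labelled. Directions between them follow the labels.

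Fat cells take up fatty acids that lipoprotein lipase frees from circulating triglyceride-rich particles. The lipase is made mainly by adipocytes and muscle fibres, and an endothelial anchor carries it to the capillary lumen, where it acts. Fatty acids then cross endothelium and parenchymal membranes with the help of CD36 and transport proteins, are held in solution by cytoplasmic binding proteins, and are trapped by esterification to coenzyme A.

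The filtered libraries held 3503 WT-labelled and 2852 KO-labelled nuclei, with a median of 1195 and 3879 unique molecular identifiers (UMIs, 1 per captured molecule). The deposited barcode lists of the libraries, before filtering, had 12 barcodes in common. Cell classes were named from marker genes that hold none of the 9 genes, and the names mean only that a cluster carried those markers. Adipocyte-like nuclei numbered 418 and 894, endothelial-like 92 and 122, ASPC-like (adipogenic stem and precursor cells, fibroblasts included) 297 and 784, myeloid-like 332 and 809, and lymphocyte-like 2106 and 111, in the libraries labelled WT and KO. Lymphocyte-like nuclei were thus 60.1% and 3.89% of the kept nuclei, in tissue that the paper describes as free of the lymph node. A further 44 mural-like nuclei (pericytes and smooth muscle) and 52 myocyte-like nuclei came from the KO-labelled library, while the 10 mural-like nuclei of the WT-labelled library were too few to describe. Each of the 12 adipocyte markers was detected in the adipocyte-like nuclei of both libraries, and their summed level was 10663 and 21173 CPM (a gene's counts scaled to a common total). All 14 lymphocyte markers were detected there too, summing to 408 and 14.8 CPM, and in endothelial-like nuclei they summed to 1067 CPM (all 14 detected) and 4.08 CPM (13 of 14 at 0). The part of this RNA in the ratios below was not tested. Different clusters held the class in each library, since 889 of the 894 adipocyte-like nuclei labelled KO lay in a cluster with no nucleus of the WT-labelled library. Endothelial-like nuclei of both libraries lay in 1 shared cluster.

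A level below is given as CPM of the summed UMIs of a class, or as UMIs per nucleus. Lymphocyte-like nuclei served as the measure of free RNA, the RNA from broken cells that enters droplets of every kind. They too differed in kind, with 1247 and 754 of the 2106 WT-labelled nuclei in clusters led by B cell and T cell genes, and 62 of the 111 KO-labelled nuclei in a cluster led by Gzma and Ncr1, genes of natural killer cells. Intervals are exact 95% intervals and cover counting error only, not the spread between mice or preparations. With 1 library for each label no test was possible, and no p-value is given.

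Coordinates and promoter sequences were taken from RefSeq on GRCm38.p6, and 5 of the 9 genes had an entry in the promoter table (Cd36, Slc27a1, Slc27a4, Acsl1 and Acsl4). Lpl, Gpihbp1, Fabp4 and Fabp5 were not in it. The 250 bases before an annotated start are shown for the genes with the highest and the lowest adipocyte ratio among those with an entry. The Cd36 window (chr5:17835897-17836146, minus strand) lies within the annotated span of the gene, and the Acsl1 window (chr8:46470787-46471036, plus strand) lies just before its first start. Capitals mark matches on either strand to 4 motifs: AGGTCA, the half-site of nuclear receptors; GGGCGG, the GC box; TATAAA, the core promoter element of that name; and CCAAT, which several general factors bind. No letters are shared between matches of different motifs.

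Cd36: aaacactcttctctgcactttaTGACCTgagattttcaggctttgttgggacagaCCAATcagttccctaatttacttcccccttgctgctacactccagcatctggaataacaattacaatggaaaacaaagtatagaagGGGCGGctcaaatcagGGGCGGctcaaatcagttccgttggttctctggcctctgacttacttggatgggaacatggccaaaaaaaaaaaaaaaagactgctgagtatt

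Acsl1: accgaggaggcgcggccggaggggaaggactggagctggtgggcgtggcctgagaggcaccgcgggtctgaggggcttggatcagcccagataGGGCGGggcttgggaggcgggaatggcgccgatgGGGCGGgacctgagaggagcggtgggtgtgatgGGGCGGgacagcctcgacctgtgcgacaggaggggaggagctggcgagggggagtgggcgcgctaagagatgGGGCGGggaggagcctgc

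The Cd36 window held 1 match to AGGTCA, 2 to GGGCGG and 1 to CCAAT, and the Acsl1 window held 4 matches to GGGCGG and none to the other motifs. Among 32851 windows of the same length, 14.0% held AGGTCA, 32.7% GGGCGG, 12.4% TATAAA and 33.8% CCAAT. A match is a run of letters and not a shown site. These libraries count the 3' ends of transcripts, so they do not tell which start was used.

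Lpl (chromosome 8, 68880555 to 68906932) encodes lipoprotein lipase, the secreted enzyme that releases fatty acids from triglyceride. Adipocyte-like nuclei held 6254 Lpl UMIs in the WT-labelled library (3202 CPM, interval 3123 to 3283) and 13543 in the KO-labelled library (1567 CPM, interval 1541 to 1594). Per nucleus the levels were 14.96 (interval 14.6 to 15.3) and 15.1 (interval 14.9 to 15.4) UMIs. Thus the CPM ratio of labelled KO to labelled WT was 0.489 (interval 0.475 to 0.504), while the UMIs per nucleus lay within each other's intervals. The adipocyte-like nuclei labelled KO were the deeper ones, with a median of 7848.5 UMIs against 3651.5, and the part of depth in this ratio was not tested. The log2 ratio of -1.03 was -0.74 under TMM scaling and -0.80 once intronic length was corrected for, both short of a ratio of 0.5. Nuclei with at least 1000 UMIs were also thinned to that number, which left out 10 and 5 adipocyte-like nuclei but 1024 of 2106 and 16 of 111 lymphocyte-like nuclei (labelled WT and KO). After thinning, 89.0% of adipocyte-like nuclei labelled WT (interval 85.5 to 91.8) and 73.6% of those labelled KO (interval 70.5 to 76.4) had a Lpl UMI, against 97.6% and 99.0% before thinning. Lymphocyte-like nuclei showed 38.1% and 48.4% after thinning, which is the free-RNA level of this gene.

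Other classes also carried Lpl above that level. Its level in lymphocyte-like nuclei was 596 CPM (0.729 UMIs per nucleus) in the WT-labelled library and 638 CPM (1.38) in the KO-labelled library. ASPC-like nuclei reached 1903 CPM (4.77 UMIs per nucleus) and 718 CPM (3.03), a ratio of 0.377 (interval 0.353 to 0.403). In the KO-labelled library the ASPC-like CPM was 1.13 times the lymphocyte-like CPM, with an interval of 0.956 to 1.34 that includes 1. Different clusters make up this class as well, with 292 of the 297 nuclei labelled WT in a cluster led by Col3a1 and Cd248, and most nuclei labelled KO in the clusters led by Sfrp2 (379) and Sntg1 (373).

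Myeloid-like nuclei held Lpl at 1298 CPM (labelled WT) and 1017 CPM (labelled KO), a ratio of 0.784 (interval 0.725 to 0.848). Different clusters again made up the class, which bears on every myeloid ratio given here. Of the 332 nuclei labelled WT, 313 lay in a cluster led by Ms4a7, Timd4 and Gpnmb with 20 nuclei labelled KO, whereas 543 and 246 of the 809 labelled KO lay in clusters with 0 and 19 nuclei labelled WT. Inside the pair of clusters that hold both, Lpl CPM was higher labelled KO, with intervals that do not overlap. The values were 2200 against 1301 CPM (20 and 313 nuclei) and 2011 against 1255 CPM (246 and 19 nuclei). Per nucleus the first of these clusters had 2.8 (interval 2.12 to 3.64) and 2.50 (interval 2.33 to 2.68) UMIs, which overlap. The lymphocyte-like levels were 1.38 and 0.729. The second cluster had 6.98 and 2.32 (interval 1.68 to 3.11). In 3 nuclei lay 28 of the 56 UMIs of the 20 nuclei labelled KO, and 30 of the 44 of the 19 labelled WT. By CPM the direction of the class ratio is thus not that within this pair of clusters. Within the KO-labelled library, a myeloid cluster led by St18 and Gpr141 stood at 2011 CPM (interval 1917 to 2109, 246 nuclei), or 6.98 UMIs per nucleus. The larger myeloid cluster, led by Rbpj, F13a1 and Cd163 (resident macrophage genes), stood at 528 CPM (interval 495 to 563, 543 nuclei), near the lymphocyte-like level of that library. Endothelial-like nuclei had 667 CPM and 906 CPM, and myocyte-like nuclei 314 CPM. The endothelial ratio of 1.36 (interval 1.08 to 1.72) fell below 1 once lymphocyte-like UMIs per nucleus were subtracted. On the log2 scale it was 0.44, against -0.24 after that subtraction and 1.135 after correction for intronic length.

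**Figure D1:**
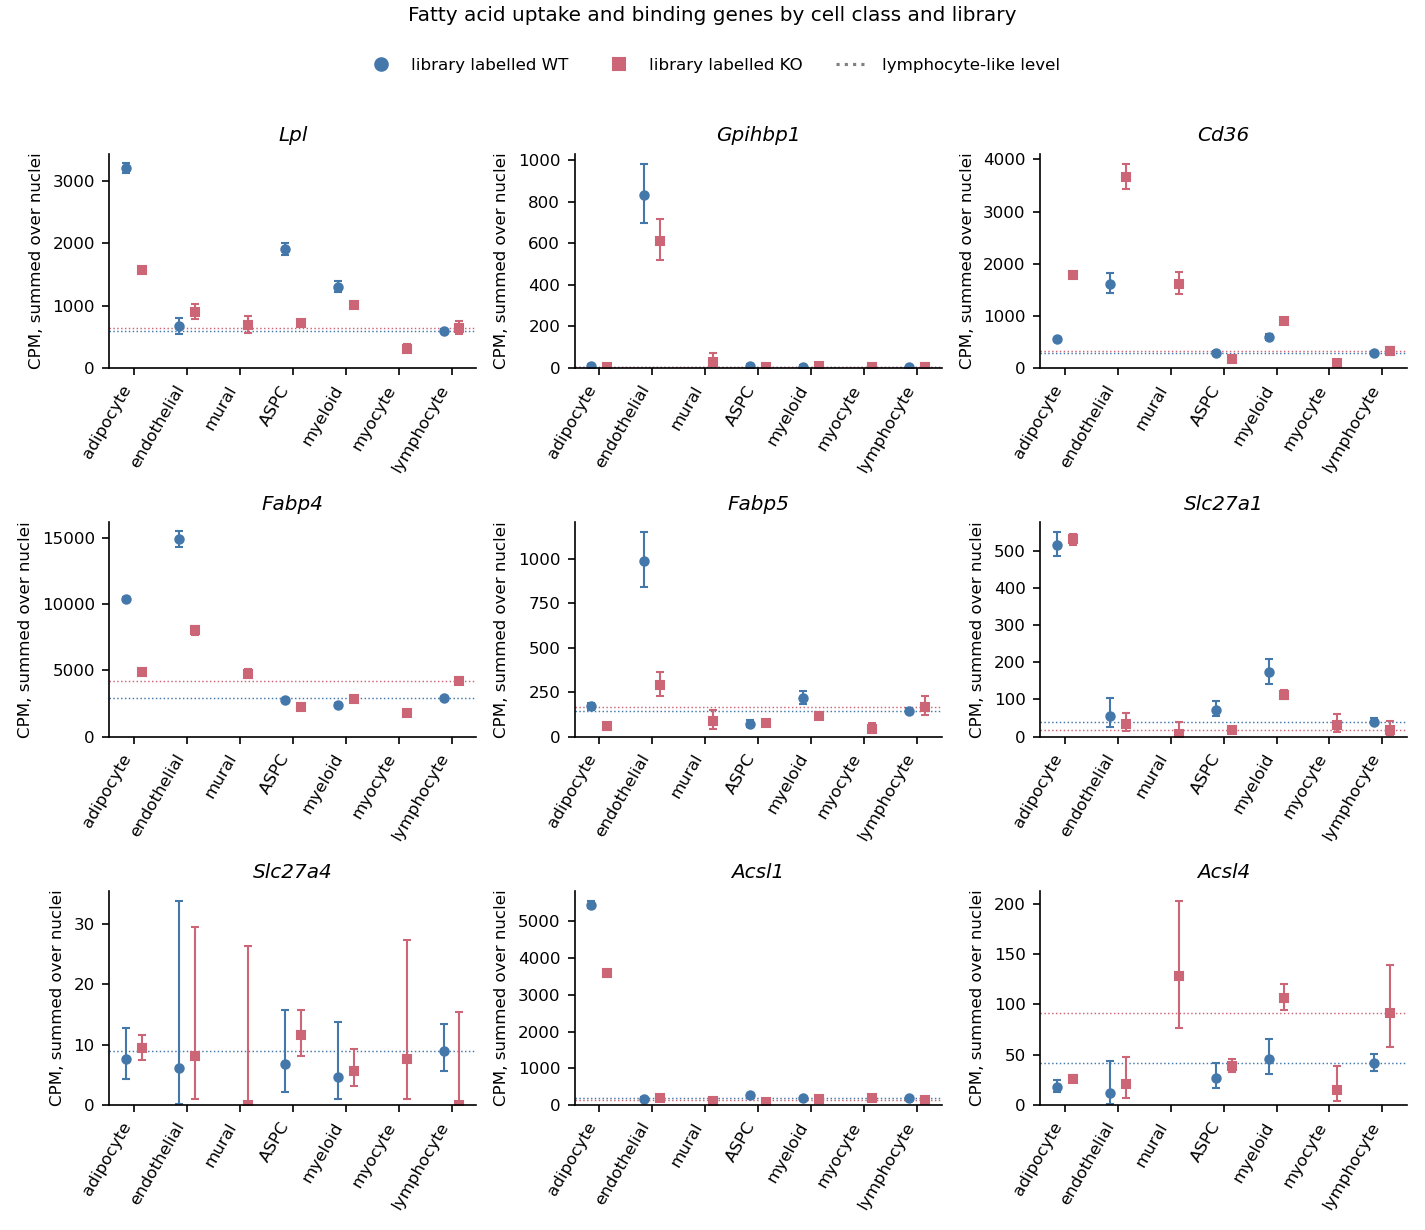
Level of each of the 9 genes by cell class, in CPM of summed UMIs on linear axes from 0, for the libraries labelled WT (circles) and KO (squares), with exact 95% counting intervals and dotted lines at the lymphocyte-like level of each library. Only classes of at least 20 nuclei are drawn; Gpihbp1 stands out in endothelial-like nuclei alone, at 831 and 612 CPM, and Acsl1 in adipocyte-like nuclei alone, at 5460 and 3595 CPM.

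Gpihbp1 (chromosome 15, 75596630 to 75598213) encodes the endothelial protein that carries lipoprotein lipase across the capillary wall and holds it at the lumen. Over the classes of at least 20 nuclei, endothelial-like nuclei held 73.7% of its UMIs labelled WT and 62.0% labelled KO. They had 137 UMIs in the WT-labelled library (831 CPM, interval 697 to 982) and 150 in the KO-labelled library (612 CPM, interval 518 to 718). Adipocyte-like nuclei had 11.8 and 6.02 CPM, and lymphocyte-like nuclei 6.21 CPM (16 UMIs) and 4.17 CPM (1 UMI). The endothelial CPM was 70.5 times (interval 45.1 to 115) and 102 times (interval 73.8 to 142) the adipocyte CPM of the same library.

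A UMI of Gpihbp1 was found in 27.2% of endothelial-like nuclei labelled WT and 51.6% of those labelled KO. At 1000 UMIs per nucleus the shares were 18.0% (interval 9.36 to 30.0, 61 nuclei) and 41.2% (interval 31.5 to 51.4, 102 nuclei), and the lymphocyte-like shares were 0.647% and 1.05%. The share of nuclei was thus higher in the KO-labelled library, although the summed CPM was lower, with a ratio of 0.737 (interval 0.581 to 0.936). In the WT-labelled library, 3 nuclei held 83 of the 137 UMIs. These are the 3 endothelial-like nuclei of that library with most UMIs of the 9 genes. Without the 3 such nuclei of each library, the levels were 381 CPM (interval 286 to 497) and 580 CPM (interval 486 to 687), and the log2 ratio turned from -0.44 to 0.61. It was also above 0 in nuclei with at least 1000 genes (0.50) and after correction for intronic length (0.57), and it was -0.82 among nuclei with fewer than 2 lymphatic markers and -1.46 with classes from each nucleus's own markers.

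A second feature of the endothelial class bears on every vascular value. Of its nuclei, 20 of 92 labelled WT and 3 of 122 labelled KO had at least 2 of 5 markers of lymphatic endothelium, the vessel type that drains lymph. Gpihbp1 stood at 130 CPM in those 20 nuclei and at 1103 CPM in the other 72. Cd36 stood at 325 and 2122 CPM, and Fabp4 at 2143 and 19899 CPM, so all 3 genes were lower in the nuclei with lymphatic markers. The 72 nuclei include the 3 with most UMIs of the 9 genes, and without them the levels of the other 69 were 502 CPM for Gpihbp1, 1193 CPM for Cd36 and 7041 CPM for Fabp4, still above the 20. Lpl went the other way, at 534 CPM (51 UMIs) in those 69 and 844 CPM (39 UMIs) in the 20 with lymphatic markers, with overlapping intervals. The share of such nuclei thus differed between the libraries, and its part in the endothelial ratios was measured only by leaving them out.

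Cd36 (chromosome 5, 17781690 to 17888959) encodes the membrane glycoprotein that binds long-chain fatty acids and takes part in their entry into fat cells, endothelium and macrophages. In adipocyte-like nuclei it had 1077 UMIs labelled WT (551 CPM, interval 519 to 585) and 15381 UMIs labelled KO (1780 CPM, interval 1752 to 1808). Per nucleus the level was 2.58 and 17.2 UMIs. The CPM ratio was 3.23 (interval 3.03 to 3.44). On the log2 scale this is 1.69, against 0.80 after correction for intronic length, which is below a ratio of 2. At equal depth, 40.0% of adipocyte-like nuclei labelled WT (interval 35.2 to 44.9) and 73.1% of those labelled KO (interval 70.1 to 76.0) had a UMI, against 80.1% and 97.4% before thinning. Thinned to 500 UMIs instead, the shares were 20.8% and 52.2%. The lymphocyte-like shares at equal depth lay close together, at 22.7% (interval 20.3 to 25.4) and 28.4% (interval 19.6 to 38.6). Single adipocyte-like nuclei spread widely, from 0 to 33.9 UMIs per 10000 with a median of 5.27 (labelled WT) and from 0 to 66.7 with a median of 14.5 (labelled KO), so the ranges overlap.

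The highest Cd36 CPM of both libraries were endothelial, at 1619 CPM (interval 1430 to 1825) and 3669 CPM (interval 3433 to 3917). By UMIs per nucleus the endothelial-like level was 2.90 (interval 2.56 to 3.27) labelled WT, which overlaps the adipocyte-like interval (2.42 to 2.74), and 7.37 labelled KO, below the 17.2 of adipocyte-like nuclei. Of the 267 endothelial UMIs labelled WT, 138 lay in 3 of the 92 nuclei. Without these nuclei, 114 UMIs lay in the 69 nuclei with fewer than 2 lymphatic markers and 15 in the other 20. The WT-labelled overlap thus rests on those 3 nuclei. The endothelial CPM ratio was 2.27 (interval 1.98 to 2.61). On the log2 scale it was 1.18, against 1.92 without the 3 nuclei of each library, 2.09 in nuclei with at least 1000 genes, 0.83 among nuclei with fewer than 2 lymphatic markers, 0.46 after correction for intronic length and 0.31 with classes from each nucleus's own markers. Mural-like nuclei labelled KO had 1620 CPM (interval 1416 to 1844). Myeloid-like nuclei had 598 CPM and 911 CPM, a ratio of 1.52 (interval 1.37 to 1.70) between nuclei of mostly different clusters. Among the myeloid clusters of the KO-labelled library, the cluster led by St18 and Gpr141 again stood above the other, at 1494 CPM against 627 CPM.

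ASPC-like nuclei went the other way, with 294 CPM and 174 CPM (ratio 0.591, interval 0.505 to 0.694). The lymphocyte-like level of Cd36 was 290 CPM (0.355 UMIs per nucleus) and 321 CPM (0.694). Per nucleus the ASPC-like level was 0.737 and 0.733 UMIs. The ASPC-like CPM was thus 1.01 times the free-RNA level in the WT-labelled library and 0.542 times in the KO-labelled library, and no expression is read from it.

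**Figure D2:**
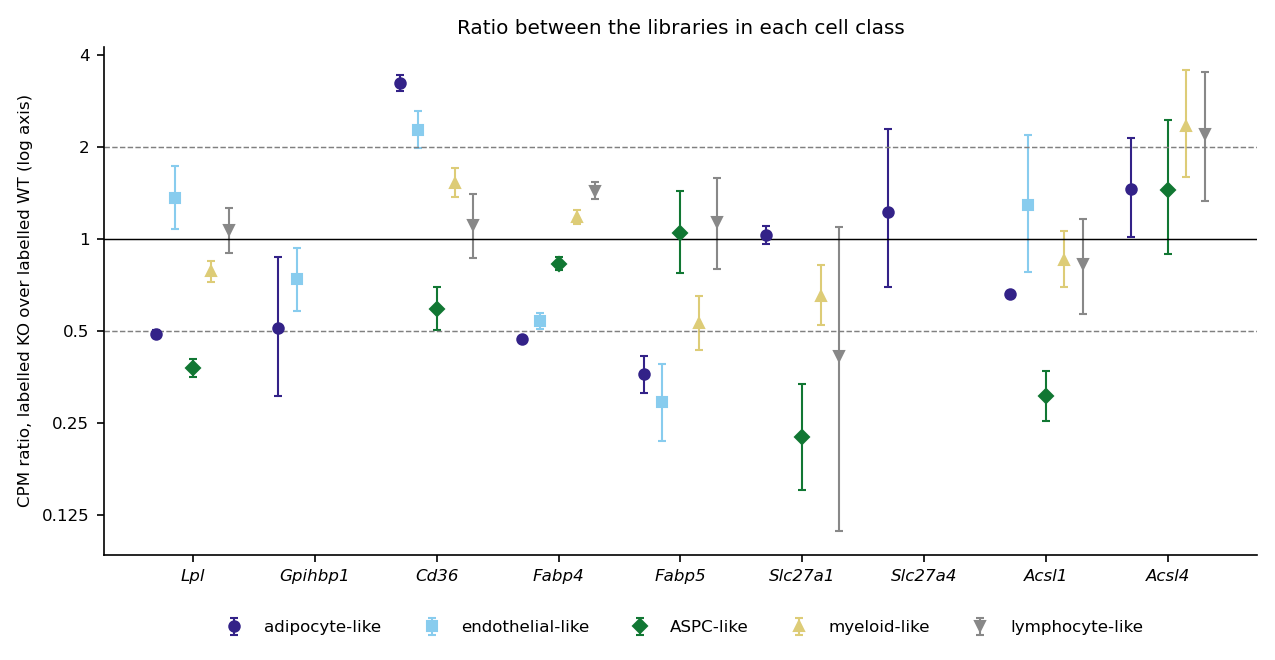
Ratio of CPM, labelled KO over labelled WT, on a log axis, for each gene with at least 50 UMIs over both libraries in a class, with exact conditional binomial 95% intervals (counting error only). The solid line marks 1 and the dashed lines 0.5 and 2; Cd36 lies above 2 in adipocyte-like (3.23) and endothelial-like (2.27) nuclei and below 1 in ASPC-like nuclei (0.591).

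Fabp4 (chromosome 3, 10204342 to 10208616) encodes the fatty acid binding protein of adipocytes and capillary endothelium. Adipocyte-like nuclei held 10375 CPM labelled WT (interval 10233 to 10519) and 4866 CPM labelled KO (interval 4819 to 4913). Per nucleus these are 48.5 (interval 47.8 to 49.1) and 47.0 (interval 46.6 to 47.5) UMIs, so a CPM ratio of 0.469 (interval 0.461 to 0.477) stood beside nearly equal UMI numbers. The log2 ratio of -1.09 was -1.29 with free RNA subtracted, but -0.80 under TMM scaling and -0.39 once intronic length was corrected for, both short of a ratio of 0.5. Every adipocyte-like nucleus of both libraries had at least 3 Fabp4 UMIs.

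The free-RNA level of Fabp4 was high and differed between the libraries. Lymphocyte-like nuclei had 2944 CPM labelled WT and 4231 CPM labelled KO, or 3.60 and 9.14 UMIs per nucleus. In the KO-labelled library, the ASPC-like, myeloid-like and myocyte-like nuclei had 9.53, 9.42 and 9.08 UMIs per nucleus, all near the lymphocyte-like value. The adipocyte CPM there was only 1.15 times the lymphocyte CPM (interval 1.08 to 1.22), against 3.52 times (interval 3.43 to 3.62) in the WT-labelled library. Barcodes with fewer than 500 genes, which can hold free RNA or broken nuclei, stood at 13143 CPM in the KO-labelled library, above its adipocyte-like nuclei, and at 5002 CPM in the WT-labelled library.

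Endothelial-like nuclei had Fabp4 at 14926 CPM (26.8 UMIs per nucleus) labelled WT and 8023 CPM (16.1) labelled KO. In the WT-labelled library, the 3 nuclei named above held 1690 of the 2462 UMIs, and 1 nucleus alone held 1325. Leaving out 3 nuclei from each library gave 5445 CPM (interval 5067 to 5843) and 7932 CPM (interval 7574 to 8302), so the log2 ratio turned from -0.90 to 0.54. Other settings moved it the other way, to -1.29 among nuclei with fewer than 2 lymphatic markers, -1.90 with free RNA subtracted and -2.04 with classes from each nucleus's own markers, while it was -0.45 in nuclei with at least 1000 genes and -0.090 after correction for intronic length. The direction of the endothelial Fabp4 difference therefore rests on those nuclei. Mural-like nuclei labelled KO had 4751 CPM (15.1 UMIs per nucleus).

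Fabp5 (chromosome 3, 10012585 to 10016610) encodes the epidermal-type binding protein, which adipocytes, endothelium and macrophages also make. Endothelial-like nuclei had its highest CPM in both libraries, at 988 CPM (interval 842 to 1152) labelled WT and 290 CPM (interval 226 to 365) labelled KO. Of the 163 UMIs labelled WT, 118 came from the same 3 nuclei, and without 3 nuclei in each library the levels were 317 and 288 CPM, with overlapping intervals (231 to 425 and 223 to 366). The log2 ratio was -1.77, against -0.14 without those nuclei, -0.76 after correction for intronic length, -2.82 with classes from each nucleus's own markers and -3.01 with free RNA subtracted. Adipocyte-like nuclei had 170 CPM (0.794 UMIs per nucleus) and 61.3 CPM (0.593), a ratio of 0.361 (interval 0.314 to 0.415). On the log2 scale this is -1.47, against -2.45 with free RNA subtracted and -0.56 after correction for intronic length, which no longer reaches a ratio of 0.5. Lymphocyte-like nuclei had 147 CPM (0.179) and 167 CPM (0.360), so the adipocyte CPM was at 1.16 times the lymphocyte level labelled WT (interval 0.997 to 1.35) and below it labelled KO. Myeloid-like nuclei had 218 and 116 CPM.

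**Figure D3:**
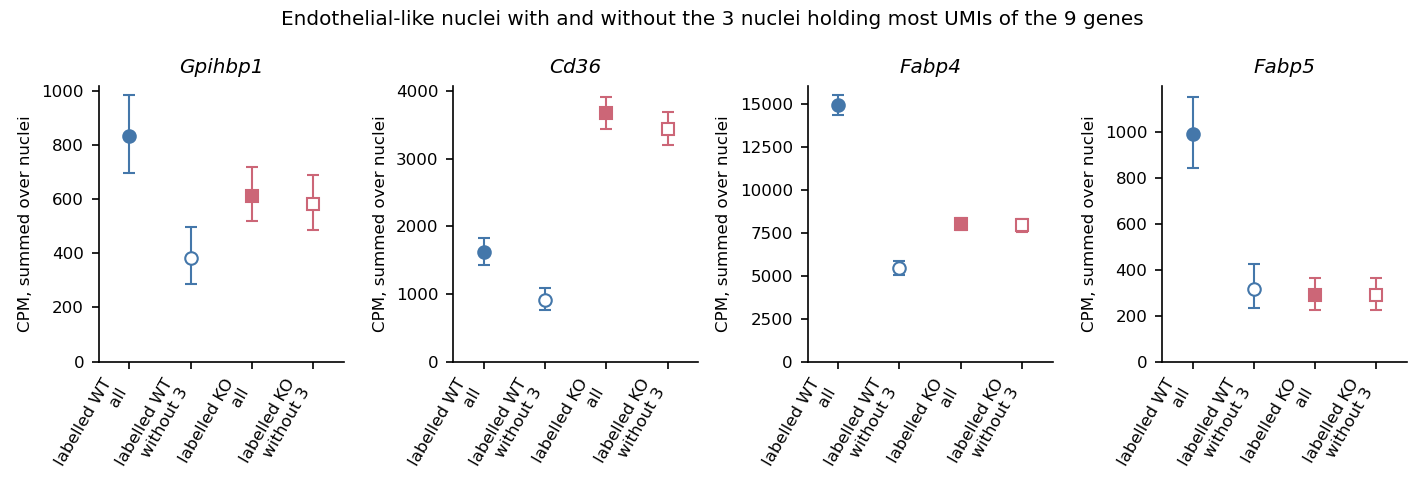
CPM of Gpihbp1, Cd36, Fabp4 and Fabp5 in endothelial-like nuclei of each library, over all nuclei (filled) and without the 3 nuclei of that library with most UMIs of the 9 genes (open), with exact 95% counting intervals on linear axes from 0. Leaving them out moved Fabp4 from 14926 to 5445 CPM in the WT-labelled library and from 8023 to 7932 CPM in the KO-labelled library.

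Slc27a1 (chromosome 8, 71568728 to 71587307) encodes fatty acid transport protein 1, the insulin-responsive family member of fat and muscle. Its level in adipocyte-like nuclei was 516 CPM (interval 485 to 549) labelled WT and 530 CPM (interval 515 to 545) labelled KO. The ratio was 1.03, with an interval of 0.959 to 1.10 that includes 1. Lymphocyte-like nuclei had 40.4 and 16.7 CPM, so the adipocyte CPM was 12.8 times (interval 10.4 to 15.8) and 31.8 times (interval 12.4 to 117) the free-RNA level. Here the 2 libraries did not differ beyond counting error on the CPM scale, while UMIs per nucleus were 2.41 and 5.12. Myeloid-like nuclei were next, at 173 CPM (interval 142 to 208) and 113 CPM (interval 100 to 126), both above the lymphocyte-like intervals. In ASPC-like nuclei 54 UMIs in each library gave 72.6 and 16.3 CPM, and 30 of the 54 labelled WT came from 3 nuclei.

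Slc27a4 (chromosome 2, 29802634 to 29817522) encodes fatty acid transport protein 4 and was near the detection limit in every class. Adipocyte-like nuclei had 15 UMIs labelled WT (7.68 CPM, interval 4.30 to 12.7) and 81 labelled KO (9.37 CPM, interval 7.44 to 11.6). The ratio of 1.22 has an interval of 0.698 to 2.28. Lymphocyte-like nuclei had 23 UMIs (8.93 CPM) in the WT-labelled library and 0 in the KO-labelled library, where 3 counts, the limit set for a count of 0, would be 12.5 CPM (the exact 2-sided interval ends at 15.4 CPM). On the CPM scale a difference between the libraries, or between adipocyte-like and lymphocyte-like nuclei, was not detectable at this depth. UMIs per nucleus in adipocyte-like nuclei were 0.0359 (interval 0.0201 to 0.0592) and 0.0906 (interval 0.0720 to 0.113), and the WT-labelled value was 3.29 times the lymphocyte-like one (interval 1.59 to 6.57).

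Acsl1 (chromosome 8, 46471037 to 46536051, overlapped by the gene Gm31050) encodes the main long-chain acyl-CoA synthetase of adipocytes, which commits fatty acids to esterification or oxidation. Adipocyte-like nuclei had 10664 UMIs labelled WT (5460 CPM, interval 5357 to 5565) and 31067 labelled KO (3595 CPM, interval 3555 to 3635). The CPM ratio was 0.658 (interval 0.644 to 0.673), while UMIs per nucleus were 25.5 (interval 25.03 to 26.00) and 34.8 (interval 34.4 to 35.1). CPM and UMIs per nucleus therefore order the libraries differently. At equal depth 95.8% (interval 93.4 to 97.6) and 86.4% (interval 84.0 to 88.6) of adipocyte-like nuclei had a UMI, against 13.2% and 10.5% of lymphocyte-like nuclei. Before thinning the adipocyte shares were 98.3% and 98.4%.

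Acsl1 stood far above free RNA in adipocyte-like nuclei of both libraries. Its adipocyte CPM was 30.9 times (interval 28.1 to 34.0) and 24.6 times (interval 17.7 to 35.4) that of lymphocyte-like nuclei, which had 177 and 146 CPM. Endothelial-like (152 and 196 CPM) and myeloid-like nuclei (179 and 153 CPM) had intervals that overlap the lymphocyte-like ones. Myocyte-like nuclei labelled KO had 193 CPM, or 0.981 UMIs per nucleus. The ASPC-like ratio of 0.306 (interval 0.254 to 0.369) rests on the WT-labelled library, where 121 of 201 UMIs lay in 3 nuclei.

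Acsl4 (chromosome X, 142317993 to 142390802) encodes the synthetase that prefers arachidonate and other polyunsaturated fatty acids. It was highest outside fat cells. Mural-like nuclei labelled KO had 128 CPM (18 UMIs, interval 76.1 to 203) and myeloid-like nuclei 45.5 CPM (29 UMIs) labelled WT and 107 CPM (285 UMIs) labelled KO, a ratio of 2.34 (interval 1.60 to 3.56) between nuclei of mostly different clusters. Lymphocyte-like nuclei had 41.5 and 91.7 CPM, with a similar ratio of 2.21 (interval 1.33 to 3.52). The mural-like CPM labelled KO was 1.40 times the lymphocyte-like CPM (interval 0.708 to 2.73), and 10 of its 18 UMIs lay in 3 nuclei. For myeloid-like nuclei this was 1.10 times labelled WT (interval 0.701 to 1.67) and 1.16 times labelled KO (interval 0.753 to 1.89). By CPM these levels were thus not told apart from free RNA, while by UMIs per nucleus they were 2.06, 1.72 and 1.78 times it, with intervals above 1. Adipocyte-like nuclei were lower, at 17.9 CPM (interval 12.5 to 24.9) and 26.0 CPM (interval 22.7 to 29.7), and their ratio was 1.45 (interval 1.01 to 2.14). Lymphocyte-like CPM exceeded adipocyte-like CPM, and in the KO-labelled library 15 of the 22 lymphocyte-like UMIs came from the cluster led by Gzma and Ncr1 (102 CPM). With their UMIs per nucleus subtracted, the adipocyte log2 ratio was -0.35 in place of 0.54.

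Ranked by CPM over the classes of at least 20 nuclei, Lpl, Slc27a1 and Acsl1 were highest in adipocyte-like nuclei of both libraries, and Gpihbp1, Cd36, Fabp4 and Fabp5 in endothelial-like nuclei of both. Without the 3 nuclei, WT-labelled Fabp4 was lower in endothelial-like (5445 CPM) than in adipocyte-like nuclei (10375 CPM), and the WT-labelled Fabp5 interval overlapped that of myeloid-like nuclei. For Lpl the WT-labelled order was adipocyte-like, ASPC-like, myeloid-like, then endothelial-like and lymphocyte-like with overlapping intervals. The KO-labelled order was adipocyte-like, myeloid-like, endothelial-like, ASPC-like, mural-like, lymphocyte-like and last myocyte-like. There the endothelial-like interval overlapped the myeloid-like and mural-like ones, and the ASPC-like, mural-like and lymphocyte-like intervals overlapped each other. For Cd36 the second rank was shared by adipocyte-like and myeloid-like nuclei in the WT-labelled library (551 and 598 CPM) and by adipocyte-like and mural-like nuclei in the KO-labelled library (1780 and 1620 CPM), with overlapping intervals in each case. For Fabp4 over all nuclei, adipocyte-like nuclei came second by CPM in both libraries, with intervals that overlap those of mural-like nuclei labelled KO, and first by UMIs per nucleus (48.5 against 26.8 in endothelial-like nuclei labelled WT, and 47.0 against 16.1 labelled KO). Above the lymphocyte-like level, by CPM and by UMIs per nucleus, stood 5 of the 9 genes in adipocyte-like nuclei of each library (Lpl, Cd36, Fabp4, Slc27a1 and Acsl1). By the same rule 20.1% of 11351 genes labelled WT and 14.7% labelled KO did. With barcodes under 500 genes as the free-RNA level, the KO-labelled library kept 3 of these (Cd36, Slc27a1 and Acsl1).

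Between the libraries, 1 of the 9 genes had a ratio of at least 2 in adipocyte-like nuclei (Cd36), where 25.9% of the 11351 genes with at least 50 UMIs did. At most 0.5 had 3 of the 9 (Lpl, Fabp4 and Fabp5), where 17.6% of all genes did. Across the 9 genes the median log2 ratio was -0.60, and across all genes -0.01. Of all genes 2939 were at 2 or more and 2002 at 0.5 or less, against 3554 and 1105 with TMM scaling. With Malat1 and mitochondrial genes left out they numbered 2458 and 2960. Cd36 stayed at 2 or more under both scalings, and the members at 0.5 or less numbered 1 and 4. Among endothelial-like nuclei 6 of the 9 genes were measured, with 1 at 2 or more (Cd36) beside 31.9% of 1722 genes, and 1 at 0.5 or less (Fabp5) beside 16.2%. ASPC-like nuclei had 0 of 7 measured members at 2 or more beside 25.1% of 9244 genes, and 3 at 0.5 or less (Lpl, Slc27a1 and Acsl1) beside 8.76%. Without the 3 ASPC-like nuclei of each library with most UMIs of the 9 genes, Acsl1 (114 and 82.4 CPM) was no longer at 0.5 or less, while Slc27a1 (38.4 and 16.2 CPM) and Lpl (1878 and 699.9 CPM) still were. Lymphocyte-like nuclei had 40.4 and 16.7 CPM of Slc27a1, close to these levels, and 177 and 146 CPM of Acsl1, above them. No ASPC-like expression of Slc27a1 or Acsl1 is therefore read from these ratios. For myeloid-like nuclei the counts were 1 of 7 (Acsl4) beside 24.2% of 8510 genes, and 0 beside 12.9%.

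The ratio between the libraries moved with the intronic length of a gene, and this touches each member's value. Over 10632 genes of adipocyte-like nuclei, the median log2 ratio was -0.92 in the bin of shortest introns and 2.03 in the bin of longest. The members span this range, from 493 intronic bases for Fabp5, 759 for Gpihbp1 and 3593 for Fabp4 to 67138 for Acsl4 and 103343 for Cd36. Relative to the median of genes of like intronic length, the adipocyte log2 ratio was 0.80 for Cd36, against 1.69 as measured. On the same scale it was -0.80 for Lpl, -1.07 for Acsl1, -0.39 for Fabp4, -0.56 for Fabp5 and 0.32 for Slc27a1. Directions of these 6 genes were those of the uncorrected ratios, and no member remained at a ratio of 2 or more. Lpl, Fabp4 and Fabp5 were then no longer at 0.5 or less, and Acsl1 was. The part of intronic reads in the members' ratios was not tested.

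**Figure D4:**
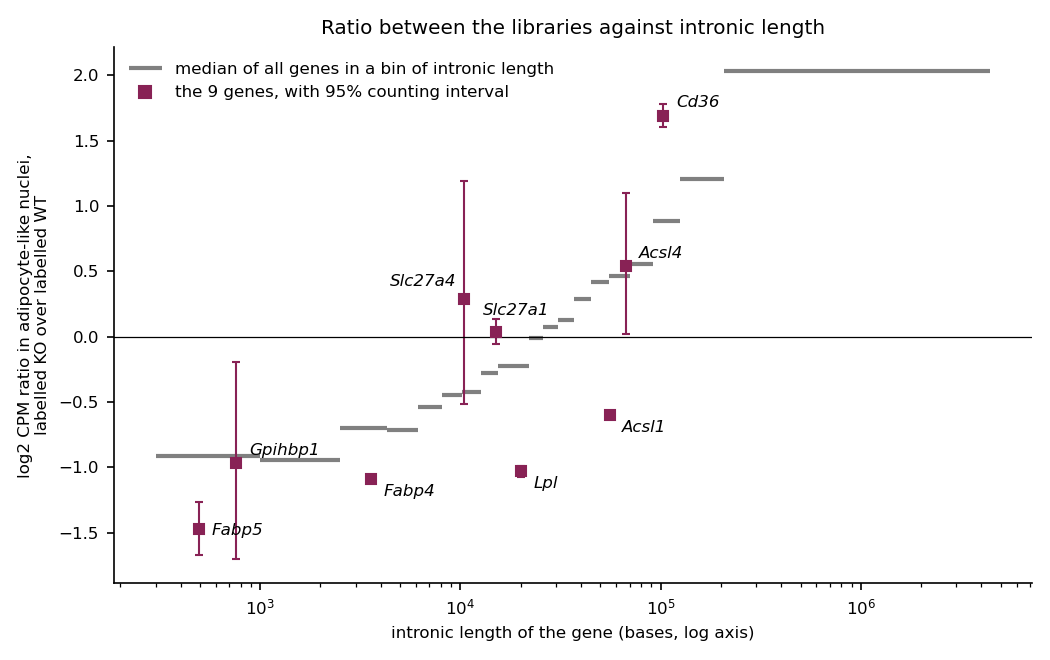
Log2 ratio of CPM in adipocyte-like nuclei, labelled KO over labelled WT, against the intronic length of each gene in bases on a log axis; grey bars are medians of all genes in 20 bins and squares the 9 genes with 95% counting intervals. Cd36, at 1.69, lies above the median of its bin (0.89), and Lpl (-1.03) and Acsl1 (-0.60) lie below theirs.

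A list of 52 further genes of fatty acid uptake and binding was found whole in the matrices, and 29 of them were measured in adipocyte-like nuclei. Of these, beside 25.9% and 17.6% of all genes, 5 had a ratio of at least 2 (Pparg, Cav1, Fabp12 and Acbd6 among them) and 5 of at most 0.5 (Angptl4, Angptl8, Lmf2, Fabp3 and Acbd4), and the median log2 ratio was -0.10. Of the genes named here, Fabp12, Acbd6, Angptl8, Lmf2 and Fabp3 lay below the 100 CPM set for naming and were named after their values were seen. Lmf2 stood at 13.8 and 5.79 CPM, below its lymphocyte-like levels of 30.7 and 20.8 CPM, so no expression is read from its ratio. Acbd6 stood at 16.9 CPM labelled WT, below 27.9 CPM in lymphocyte-like nuclei, and at 69.9 CPM labelled KO, beside 58.4 CPM. Pparg, the nuclear receptor that drives the adipocyte programme, had 411 CPM labelled WT and 1842 CPM labelled KO, a ratio of 4.48 (interval 4.17 to 4.82). Cav1, the coat protein of caveolae, had 377 and 1061 CPM (ratio 2.81, interval 2.61 to 3.04). Angptl4, a secreted inhibitor of lipoprotein lipase, had 590 and 228 CPM (ratio 0.386, interval 0.359 to 0.415), so the lipase and this inhibitor were both lower on the CPM scale in the KO-labelled library. The ratios of single listed genes given here are not corrected for intronic length. With that correction 5 listed genes were at 2 or more in adipocyte-like nuclei and 1 at 0.5 or less.

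Other listed genes lay between these ratios in adipocyte-like nuclei. Dbi, the acyl-CoA binding protein, had 529 and 530 CPM (ratio 1.00, interval 0.935 to 1.07), although lymphocyte-like nuclei had 600 and 1159 CPM of it. Lrp1, a lipoprotein receptor, had 246 and 239 CPM (ratio 0.970, interval 0.878 to 1.07). Vldlr, the receptor for very low density lipoprotein, had 112 and 61.8 CPM (ratio 0.551, interval 0.470 to 0.648), and Scarb1, a receptor for high density lipoprotein, 97.3 and 58.8 CPM (ratio 0.604, interval 0.510 to 0.718).

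In endothelial-like nuclei 11 of the 52 genes were measured, 4 with a ratio of at least 2 (beside 31.9% of all genes) and none of at most 0.5 (beside 16.2%). The 4 are Pparg (230 and 1473 CPM), Meox2 (212 and 1086 CPM), Cav1 (358 and 894 CPM) and Dbi (582 and 1396 CPM). Lymphocyte-like nuclei had 600 and 1159 CPM of Dbi, close to its endothelial-like levels, so no endothelial expression is read from its ratio. Meox2 is a transcription factor that, with Tcf15, is known to promote fatty acid uptake by endothelium. Its ratio was 5.12 (interval 3.59 to 7.50), while Tcf15 had 97.0 and 110 CPM (16 and 27 UMIs, ratio 1.14, interval 0.590 to 2.26). Unlike those of the members, the endothelial-like ratios of listed genes were not recomputed by intronic length, by lymphatic markers or without single nuclei. Summed adipocyte markers in these endothelial-like nuclei were 824 CPM labelled WT and 2551 CPM labelled KO, beside 845 and 1734 CPM in lymphocyte-like nuclei. All 12 adipocyte markers were detected in each, and the part of adipocyte RNA in the endothelial ratios was not tested.

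The genes most alike each member were sought among 7559 genes by Pearson's r of log2(CPM + 10) over 11 points, 1 for each class and library. These points share 2 libraries, their depths and their free RNA, so r is a description only. Gpihbp1 was most like Ptprb (0.99) and Egfl7 (0.98), both endothelial genes and both among the markers used to name that class. Acsl1 was most like Pck1 (0.99), a glyceroneogenic enzyme of fat cells, and Acvr1c (0.98). Cd36 came nearest to Scarb1 and Klhl5 (both 0.89), and Fabp4 to Pim3 (0.92) and Cavin2 (0.90). Lpl was nearest to Pgd (0.90) and Dmxl2 (0.89), and Slc27a1 to 3110043O21Rik (0.96) and 4931406C07Rik (0.93). For the remaining members the pairs were Mrs2 (0.93) and Slx1b (0.92) with Fabp5, Styx (0.82) and Ndel1 (0.81) with Slc27a4, and CAAA01118383.1 and Iqgap2 (both 0.94) with Acsl4. Between members, the highest value was 0.86, for Slc27a1 and Acsl1.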

How the data were processed

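The authors deposited whole UMI counts for every gene in every barcode, from Cell Ranger (6.1.1 per the file headers; mm10 and Seurat 4 per the submitters' processing notes). Whether intronic reads were counted is not given in the sources used here. The deposited counts held 9376351 and 19655049 UMIs over 5000 barcodes each (labelled WT and KO). Barcodes with at least 500 genes and at most 5% mitochondrial UMIs were kept. Scrublet (scanpy 1.11.5) removed 92 doublets labelled KO. Its automatic threshold marked none labelled WT, so 146 nuclei, the 4% scoring highest, were taken out there.

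Clusters came from Seurat 5.3.0 under R 4.3.3 (counts scaled to 10000, 2000 variable genes, 20 principal components, 20 neighbours, Louvain resolution 0.5), with the 9 genes left out. A marker passed where at least 5% of a cluster's nuclei had it at 2 times the mean CPM elsewhere. Naming took at least 3 markers and a lead of 3 over the next class. This rule was written after clusters had been named under earlier rules, and Leiden clustering, tried first, left endothelial nuclei unnamed and was kept as an alternative. The members, marker lists and the list of 52 genes were chosen with earlier results of these data known. The values of 1 listed gene are not reported here.

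Counts were summed per class and library. Summed counts have exact Poisson, shares exact Clopper-Pearson and ratios exact conditional binomial 95% intervals, which cover counting error only. Ratios were taken for genes of at least 50 counts in the libraries together, mitochondrial genes left out. Named genes were the 9 members, listed genes of at least 100 CPM in adipocyte-like or endothelial-like nuclei, and the 2 genes most alike each member (at least 500 counts, classes of at least 50 nuclei). Intronic lengths came from GENCODE vM1 (93.7% of genes measured). TMM factors came from edgeR 4.0.16, used for no test. The ratio code was checked on simulated counts. Leaving out the 3 nuclei with most member UMIs, splitting by lymphatic markers, lymphocytes without their dividing cluster, and Leiden clustering were chosen after seeing the data.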

Additional observations from a re-analysis of the deposited data

Results flagged for a closer look

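For 3 genes the ratio of labelled KO to labelled WT lay on opposite sides of 1 in different classes, with neither counting interval reaching 1. These differences between classes were not tested, as each class has 1 library for each label. Lpl was at 1.36 in endothelial-like nuclei and at 0.489 in adipocyte-like, 0.377 in ASPC-like and 0.784 in myeloid-like nuclei. In the myeloid clusters that hold nuclei of both libraries Lpl CPM was higher labelled KO (2200 against 1301 CPM, and 2011 against 1255 CPM). Per nucleus the first of these clusters had overlapping levels, at 2.8 (interval 2.12 to 3.64) against 2.50 (interval 2.33 to 2.68) UMIs. Cd36 was at 3.23 in adipocyte-like, 2.27 in endothelial-like and 1.52 in myeloid-like nuclei, and at 0.591 in ASPC-like nuclei. The ASPC-like Cd36 CPM was 1.01 times (labelled WT) and 0.542 times (labelled KO) the lymphocyte-like CPM, so no expression is read from that ratio. Fabp4 was at 1.18 in myeloid-like nuclei and at 0.469 in adipocyte-like, 0.538 in endothelial-like and 0.828 in ASPC-like nuclei. Beside these stand the lymphocyte-like ratios of 1.07 for Lpl, 1.11 for Cd36 and 1.44 for Fabp4. With free RNA subtracted, the endothelial-like log2 ratio of Lpl turned from 0.44 to -0.24, so that it no longer lay opposite to the adipocyte-like one (-1.10). By the same subtraction Cd36 was at 1.84 in adipocyte-like and 1.23 in endothelial-like nuclei, and Fabp4 at -1.29 and -1.90. With the intronic correction instead, the endothelial-like log2 ratio of Lpl was 1.135 and the adipocyte-like one -0.80. Without the 3 nuclei of each library with most UMIs of the 9 genes, however, the endothelial-like log2 ratio of Fabp4 turned from -0.90 to 0.54, on the same side as the myeloid-like one. Fabp4 CPM lay below the lymphocyte-like CPM in ASPC-like (0.927 times labelled WT, 0.534 times labelled KO) and myeloid-like nuclei (0.822 and 0.674 times), so no expression is read from those ratios. The ratios of ASPC-like and myeloid-like nuclei were not recomputed with free RNA subtracted.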

How the results depend on the processing

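No paired analysis was possible because each label has 1 library. With 1 library per label the intervals cover counting only, and depth, free RNA, lymphocyte share and the level of genes with long introns differ between the libraries together with the label, so they cannot be told apart from it.

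For adipocyte-like nuclei, the count of members at a ratio of at least 2 was 1 in 10 of 11 alternatives and 0 after correction for intronic length. The 3 members at 0.5 or less became 1 with TMM scaling (Fabp5). With the intronic correction none of them remained, and Acsl1 (log2 ratio -1.07) was the 1 member there. The members' median log2 ratio of -0.60 became -0.31 with TMM scaling, -0.86 without mitochondrial genes and Malat1, -0.053 with the intronic correction, -0.064 with Leiden clustering and -0.43 without the 3 nuclei. The same scalings moved the median of all genes from -0.01 to 0.29 (TMM) and to -0.26 (without mitochondrial genes and Malat1). The listed pathway genes at 0.5 or less fell from 5 to 1 with TMM scaling and to 1 with the intronic correction. All genes at 0.5 or less numbered 2002, and 1105 with TMM scaling, 1252 with the intronic correction and 3351 at a minimum of 10 counts. Members above lymphocyte-like nuclei labelled KO became 3 with barcodes under 500 genes as free RNA, and 4 (without Fabp4) with Leiden clustering.

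For endothelial-like nuclei, the 1 member at 2 or more became 0 with classes from each nucleus's own markers and 0 among nuclei under 2 lymphatic markers. With the intronic correction the count stayed at 1, but the member was Lpl (log2 ratio 1.135) in place of Cd36 (0.46). The 1 member at 0.5 or less became 2 without mitochondrial genes and Malat1, 3 with classes from own markers, 0 with the intronic correction, 2 after free RNA was subtracted, 0 without the 3 nuclei and 2 under 2 lymphatic markers. Leiden clustering gave no endothelial class and thus no value.

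The log2 ratio changed sign for Acsl4 in adipocyte-like nuclei (-0.35 with free RNA subtracted), and in endothelial-like nuclei for Lpl (-0.24 with free RNA subtracted), Gpihbp1 (0.50 at 1000 genes or more, 0.57 with the intronic correction, 0.61 without the 3 nuclei) and Fabp4 (0.54 without the 3 nuclei). The cause was not tested. Thinned to 500 UMIs in place of 1000, 15 of 18 shares of adipocyte-like nuclei with a UMI moved beyond their counting interval, all of them lower. The order of the libraries turned for Slc27a4 (0.490% and 1.01% at 1000 UMIs, 0.478% and 0.447% at 500) and Acsl4 (1.96% and 2.59%, 1.44% and 0.895%), and for no other member. Of 164 single-gene log2 ratios under an alternative, 110 lay within the reported counting interval, 48 moved further and 6 changed sign as listed. Slc27a1 in adipocyte-like nuclei (under 3 alternatives, down to -0.21 without mitochondrial genes and Malat1) and Acsl1 in endothelial-like nuclei (-0.98 at 1000 genes or more) also turned, from values whose intervals included 1 as ratios.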

Other observations

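Of the kept nuclei, 248 labelled WT and 36 labelled KO lay in a pair of clusters that no marker list named. A cluster of 150 WT-labelled nuclei, led by Ccl21a, Clu, Cxcl13 and Ccl19 (chemokines of lymphoid stroma among them), had Lpl at 601 CPM, Cd36 at 168 CPM and Fabp4 at 1826 CPM, beside 596, 290 and 2944 CPM in lymphocyte-like nuclei of that library. A cluster of 98 and 36 nuclei, led by Apol7c, Clec9a, Ccl22 and Il12b (genes of dendritic cells among them), had Lpl at 520 and 382 CPM, Cd36 at 235 and 372 CPM and Fabp4 at 1808 and 2644 CPM. Acsl4 stood there at 37.2 CPM (9 UMIs, interval 17.0 to 70.5) and 93.1 CPM (10 UMIs, interval 44.7 to 171), and Gpihbp1 had no UMI.

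Clustered more finely, at resolution 1, the WT-labelled ASPC-like nuclei split into groups with Lpl at 2628 CPM and at 508 CPM. At the resolution used throughout, the KO-labelled ASPC-like clusters led by Sfrp2 and by Sntg1 stood at 842 and 497 CPM. In both libraries the counting intervals of these groups did not overlap. The lower group of each library lay below the lymphocyte-like Lpl level by CPM (596 CPM labelled WT and 638 CPM labelled KO), so no expression is read from it.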
